A study of Mus musculus with 10 samples.

Results

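The 10 genes described here encode subunits of integrins, 7 of them alpha subunits (Itga1, Itga3, Itga5, Itga6, Itga7, Itga9 and Itgav) and 3 of them beta subunits (Itgb1, Itgb5 and Itgb6). They were taken by name from a table of read counts for 23337 genes, and all 10 passed the filter on low counts that left 11870 genes to test. The messenger RNA came from heart muscle cells (cardiomyocytes) of mice with floxed Actn2, the gene of the Z-line protein alpha-actinin-2. Every animal received, on postnatal day 1, an adeno-associated virus of serotype 9 carrying the recombinase Cre under the cardiac troponin T promoter, and hearts were digested with collagenase and the cells sorted on day 14. The knockout group holds 5 mice with both Actn2 alleles floxed (Actn2-FF). The heterozygote group, which served as the control, holds 5 mice with 1 floxed allele (Actn2-F+), so both groups carry the virus, Cre and at least 1 floxed allele. The labels call the 5 animals of a group biological replicates and give neither sex nor batch.

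An integrin is a pair of an alpha and a beta subunit, both spanning the cell membrane. The outer parts bind proteins of the extracellular matrix, and the short inner tail of the beta subunit binds talin, kindlin and other adaptors that lead to actin, alpha-actinins among them. In muscle these receptors sit at costameres, where Z-lines meet the membrane. The beta1 subunit pairs with most alpha subunits described here, while alphav also pairs with beta5 and beta6.

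Total counts ran from 8086656 to 25237696 per animal. Actn2 itself was at 2677 to 3474 CPM (normalised read counts, scaled to the library total with a composition factor per library) in the heterozygotes and at 1145 to 1286 CPM in the knockouts, a log2 difference, knockout minus heterozygote, of -1.39 (SE 0.0910; edgeR, adjusted p 3.48e-07). In this the 10 libraries matched their labels. A list of 7 cardiomyocyte genes summed to 98235 to 125844 CPM in the heterozygotes and 90830 to 115647 CPM in the knockouts. Markers of other cells were detected too. The 10 endothelial markers summed to 690.3 to 1224 CPM in the heterozygotes and 446 to 769 CPM in the knockouts, and 9 fibroblast markers to 331 to 542 and 320 to 651 CPM. Single markers of these lists averaged from 1.32 (Tcf21) to 258 CPM (Col3a1) in the heterozygotes. That span includes the mean levels of all subunits described here except Itga7 and Itgb1. The part of other cells in the subunit RNA was not tested. In bulk RNA, fewer cells of a type and less RNA per cell cannot be told apart.

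The sorted cells of the knockouts held more RNA of Itga9, Itga5 and Itgav and less of Itga1, and the other 6 subunits did not pass the test. The calls of Itga1 and Itgav were lost in 6 and 2 of the 19 alternative settings. Of the 10 subunits, 4 (40.0%) passed (quasi-likelihood F test of edgeR, Benjamini-Hochberg adjusted p below 0.05), against 18.9% of all tested genes. The 3 that rose compare with 10.2% of tested genes called higher, and the 1 that fell with 8.64% called lower. With scaling by library totals alone, the calls over all genes leaned further to the knockout (68.9% of calls higher, against 54.3%). The median log2 fold change of the 10 was 0.20, beside 0.0023 over all tested genes. Groups did not overlap for the 3 subunits that rose, against 14.7% of tested genes without overlap in either direction, 8.41% with the knockouts higher and 6.32% with the knockouts lower. The plot of the 10 subunits by animal shows these levels.

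**Figure D1:**
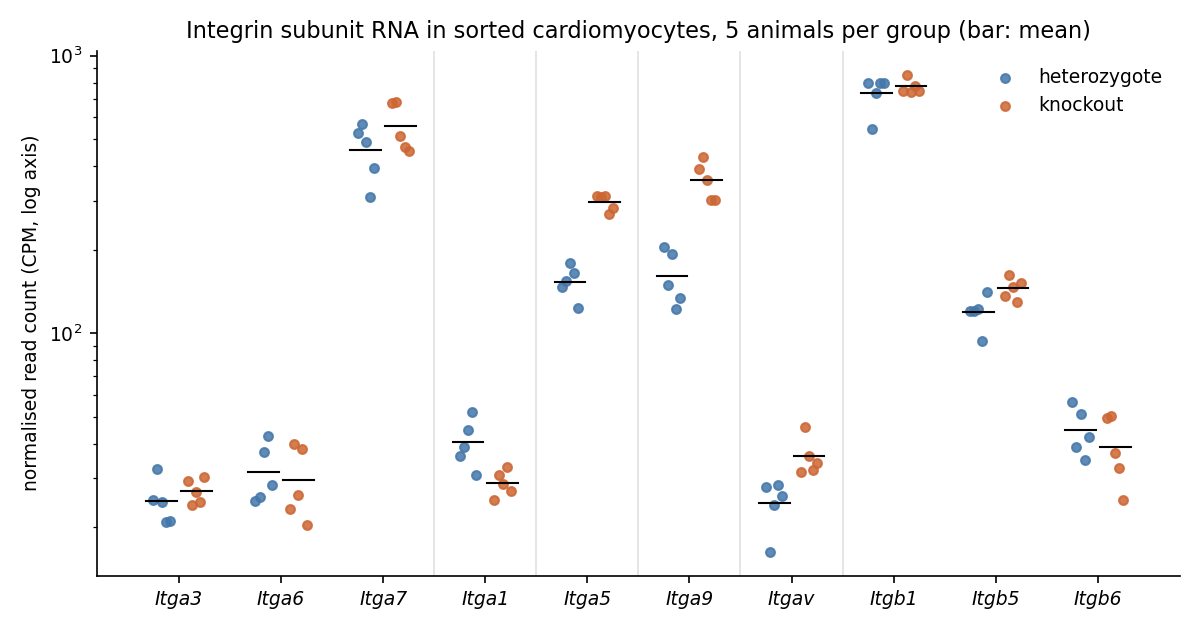
Normalised read count (CPM, log axis) of each integrin subunit in 5 heterozygotes (blue) and 5 knockouts (orange), 1 point per animal, with the group mean as a bar. Itga5, Itga9 and Itgav lie higher in every knockout than in every heterozygote, and Itgb1 and Itga7 are the most abundant subunits in both groups.

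The laminin receptors of muscle are formed by alpha7, alpha6 and alpha3, each with beta1. Itga7, on chromosome 10 at 128933813 to 128958284 of mouse build mm10 (plus strand, 25 exons), encodes the main laminin-binding alpha subunit of adult heart and skeletal muscle. It was at 526, 567, 489.8, 309 and 394 CPM in heterozygotes 1 to 5 and at 673, 680.0, 513, 469 and 453 CPM in knockouts 1 to 5. Knockouts 1 and 2 were above all heterozygotes, and the other 3 knockouts lay inside the heterozygote range. Means came to 457 ± 105 and 558 ± 111 CPM (SD, n = 5 each), and the difference did not pass the test (log2 fold change 0.29, SE 0.166, edgeR adjusted p 0.256). Itga7 shares 8 exon bases with Mettl7b on the other strand, and the counting did not use strand.

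Itga6 (chromosome 2, 71787083 to 71856758, plus strand), whose product also binds laminin and is common in epithelium and endothelium, ran from 24.9 to 42.6 CPM in the heterozygotes and from 20.4 to 39.9 CPM in the knockouts. The difference was small beside its error (log2 fold change -0.10, SE 0.205, edgeR adjusted p 0.787), and its sign turned when heterozygote 4 (0.03) or knockout 5 (0.01) was left out or when the endothelial marker level was a covariate (0.41). Itga3 (chromosome 11, 95044482 to 95076714, minus strand) encodes a further laminin receptor chain. It was at 20.98 to 32.5 CPM in the heterozygotes and at 24.0 to 30.3 CPM in the knockouts (log2 fold change 0.12, SE 0.132, edgeR adjusted p 0.572). The knockout values of Itga3 all fell within the heterozygote range.

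Itga1 (chromosome 13, 114958081 to 115101964, minus strand, 29 exons) encodes the alpha1 chain, which with beta1 binds collagens. Of the 3 subunits with a log2 fold change below 0, it was the only one called lower. The heterozygotes had 36.1, 38.8, 44.7, 52.2 and 30.9 CPM and the knockouts 25.1, 30.9, 28.7, 32.9 and 26.9 CPM. Knockout 4 was above the lowest animal of the heterozygotes, the fifth, and the other 4 knockouts lay below it, by a narrow margin for knockout 2. The means were 40.5 ± 8.20 and 28.9 ± 3.11 CPM (SD, n = 5 each; log2 fold change -0.49, SE 0.136, edgeR adjusted p 0.0225).

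Markers of endothelium moved in the same direction as Itga1. All 10 endothelial markers had a log2 fold change below 0, with a median of -0.46, and 1 of them passed the test (Egfl7, -0.65, edgeR adjusted p 0.00612). The number called lower was 5 with DESeq2 and 5 with Y-linked expression as a covariate. It was 2 without heterozygote 1, 4 without heterozygote 5, 3 without knockout 2 and 4 without knockout 4. Y-linked expression was lacking in 3 of the 10 animals, heterozygotes 3 and 5 (0 CPM) and knockout 5 (0.057 CPM), so the genotypes were not balanced in it. The mean summed CPM of the 10 markers in the knockouts was 0.719 of that in the heterozygotes. With the endothelial level as a covariate, the log2 fold change of Itga1 was -0.17 (edgeR adjusted p 0.523). That covariate also lowered the calls over all genes from 2241 to 1132. The call of Itga1 was also lost with scaling by library totals (edgeR adjusted p 0.0668) and without heterozygote 3 (0.0522), knockout 1 (0.0562), knockout 3 (0.0505) or knockout 5 (0.0523). The part of endothelial RNA in the Itga1 difference was not tested. In GENCODE M21, 685 exon bases of Itga1 belong also to Gm49395 on the same strand, a gene that the counting annotation lacks, so reads of both would be counted for Itga1.

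**Figure D2:**
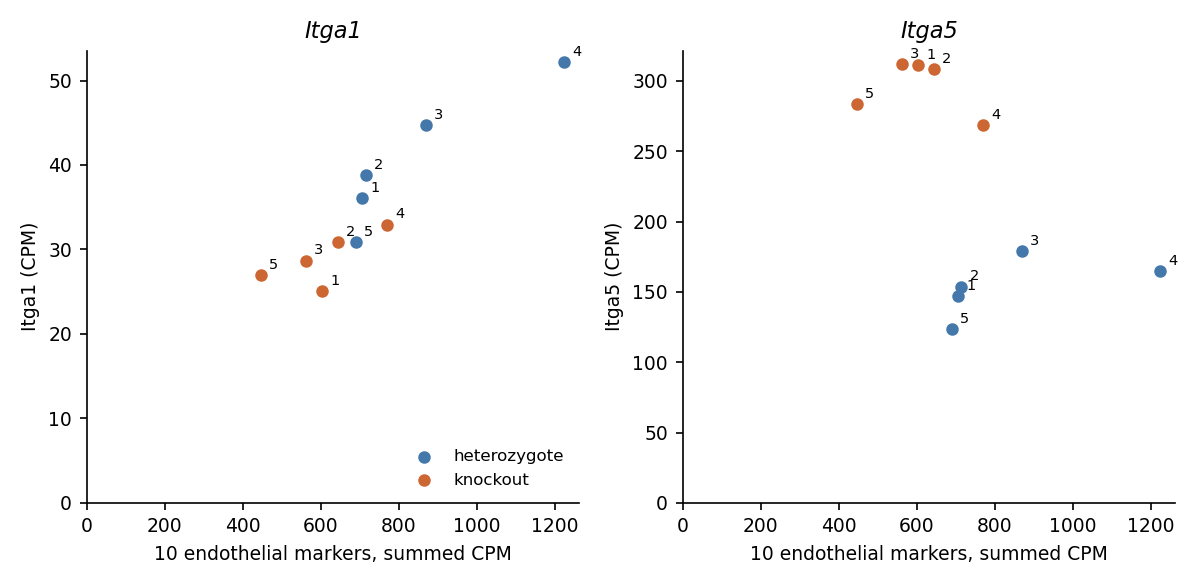
Level of Itga1 (left) and Itga5 (right) in CPM against the summed CPM of 10 endothelial markers in each animal, labelled by replicate number (blue heterozygotes, orange knockouts, linear axes from 0). Itga1 is highest in heterozygotes 4 and 3, which also have the highest endothelial level, while Itga5 is higher in all knockouts than in all heterozygotes and the endothelial levels of the groups overlap (knockout 4 lies above heterozygotes 1, 2 and 5).

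Itga5 (chromosome 15, 103344286 to 103366748, minus strand, 30 exons) encodes alpha5, which with beta1 forms the classical fibronectin receptor, a receptor prominent in the developing heart. The heterozygotes had 147, 154, 179, 165 and 124 CPM, and the knockouts 311, 309, 312, 268 and 283 CPM. Every knockout was higher than every heterozygote, with a gap between the groups wider than the spread inside either. The means were 154 ± 20.6 and 297 ± 19.8 CPM (SD, n = 5 each), a 1.93-fold level (log2 fold change 0.95, SE 0.104, edgeR adjusted p 2.78e-05). The rise was as large with the endothelial level as a covariate (1.06, adjusted p 0.000553).

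Itgav (chromosome 2, 83724397 to 83806916, plus strand, 30 exons) encodes alphav, whose dimers bind vitronectin, fibronectin and the latent form of TGF-beta. It was at 28.0, 16.3, 24.1, 28.3 and 25.98 CPM in the heterozygotes and at 31.7, 46.0, 36.1, 32.1 and 34.2 CPM in the knockouts. The groups lay next to each other without overlap, with heterozygote 2 low and knockout 2 high. The means were 24.5 ± 4.89 and 36.0 ± 5.85 CPM (SD, n = 5 each; log2 fold change 0.55, SE 0.152, edgeR adjusted p 0.0208). The call was lost without knockout 2 (0.44, adjusted p 0.0596) and with the endothelial covariate (0.63, adjusted p 0.0716).

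The largest difference among the 10 was that of Itga9 (chromosome 9, 118606709 to 118901003, plus strand, 29 exons). Its product alpha9 pairs with beta1 and binds tenascin-C, osteopontin and an alternatively spliced form of fibronectin. The heterozygotes had 204, 149, 193, 122 and 134 CPM and the knockouts 392, 431, 357, 303 and 303 CPM. All knockouts were higher than all heterozygotes, and heterozygotes 1 and 3 were the highest of their group. The means were 161 ± 36.2 and 357 ± 55.8 CPM (SD, n = 5 each), a 2.22-fold level (log2 fold change 1.15, SE 0.152, edgeR adjusted p 0.000140). Itga9 and Itga5 stayed called whichever 1 of the 10 animals was dropped (1.07 to 1.26 and 0.884 to 1.0097) and in the 9 other settings (1.07 to 1.24 and 0.92 to 1.06).

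The genes nearest to Itga9 in pattern were found by the mean absolute difference of log2 CPM over the 10 animals, each gene first set to its heterozygote mean. They were Col4a5, a chain of basement membrane collagen (mean difference 0.0673), the Z-line and costamere crosslinker Flnc (0.141) and the phospholipid flippase gene Atp8a2 (0.141), where the median tested gene was at 0.750. For Itga1 they were Btbd3 (0.0807), the kinase gene Snrk (0.0925) and Mmrn2, which encodes an extracellular protein of endothelium (0.103), beside a median of 0.412. Of these 3, Mmrn2 passed the test (log2 fold change -0.51, edgeR adjusted p 0.0122).

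Among the beta subunits, none passed the test. Itgb1 (chromosome 8, 128685654 to 128733579, plus strand, 16 exons) encodes beta1, the common partner of the alpha chains above except for part of alphav. It was at 800.3, 544, 732, 796 and 798 CPM in the heterozygotes and at 749, 855, 743, 778 and 749 CPM in the knockouts. Apart from a low heterozygote 2 and a high knockout 2, all animals lay between 732 and 800.3 CPM. The means were 734 ± 109.9 and 775 ± 46.9 CPM (SD, n = 5 each; log2 fold change 0.08, SE 0.107, edgeR adjusted p 0.671). Without heterozygote 2 the log2 fold change was -0.01.

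Itgb5 (chromosome 16, 33829665 to 33949338, plus strand) encodes a partner of alphav in vitronectin binding. It was at 120.0, 120.1, 122, 93.6 and 140.3 CPM in the heterozygotes and at 136, 162, 147, 130.1 and 152 CPM in the knockouts. Heterozygote 5 lay inside the knockout range, and the other 4 heterozygotes lay below it. The log2 fold change came to 0.29 (SE 0.109, edgeR adjusted p 0.0831). It passed the threshold with scaling by library totals (adjusted p 0.0237), with the Y-linked covariate (0.0491) and without heterozygote 5 (0.0433).

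Itgb6 (chromosome 2, 60598292 to 60722603, minus strand) encodes another partner of alphav, known from epithelium for releasing TGF-beta from its latent complex. It was at 56.4, 38.8, 51.4, 35.0 and 42.3 CPM in the heterozygotes and at 49.6, 50.5, 37.0, 32.7 and 25.1 CPM in the knockouts. The groups overlapped widely, and knockout 5 was the lowest animal (log2 fold change -0.21, SE 0.186, edgeR adjusted p 0.485).

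**Figure D3:**
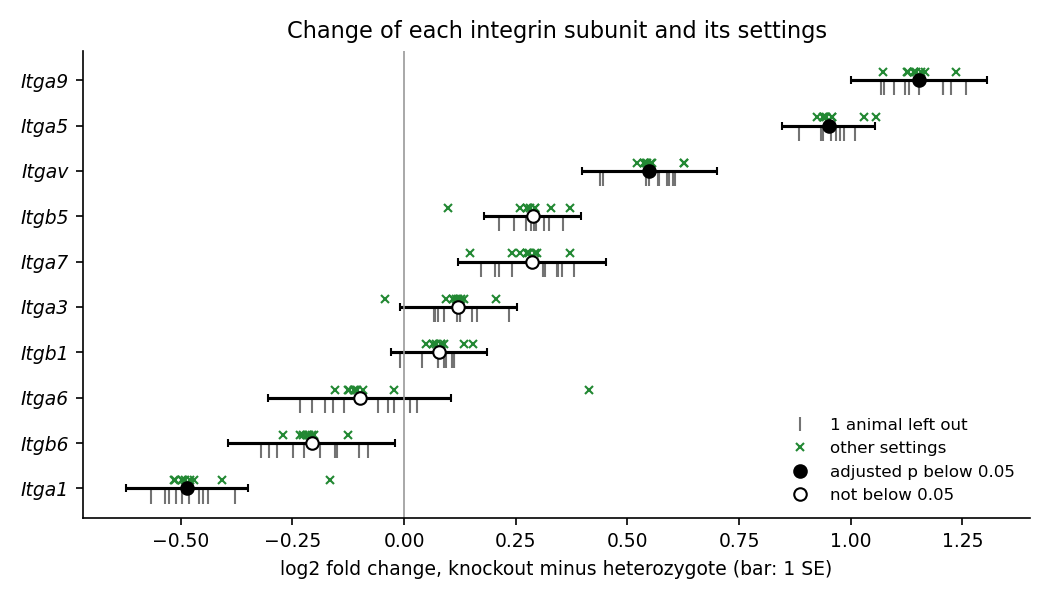
Log2 fold change of each subunit, knockout minus heterozygote, as a circle with a bar of 1 SE (filled where the adjusted p is below 0.05), with the values when 1 animal was left out (grey ticks) and under 9 other settings (green crosses). Itga9 and Itga5 keep values of 0.88 or more throughout, while Itga6, Itga3 and Itgb1 have values on both sides of 0.

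To set levels of different subunits side by side, CPM were divided by the exon length of each gene in kb. That length covers the annotated exons, and the transcript forms present were not measured, so orders and ratios between genes are approximate. In the heterozygotes, Itgb1 led with 175 ± 26.2 CPM per kb, followed by Itga7 with 114 ± 26.0 CPM per kb (SD, n = 5 each), and the animals' ranges for these 2 genes overlapped. Itgb5, Itga5 and Itga9 came next at 36.3 ± 5.08, 35.2 ± 4.73 and 22.7 ± 5.10 CPM per kb, and neighbours in this trio overlapped. Itgb6, Itga6, Itga1 and Itga3 overlapped stepwise from 8.76 down to 5.13 CPM per kb, and Itgav was lowest at 3.48 ± 0.693 CPM per kb, apart from Itga3. In the knockouts, Itgb1 (185 ± 11.2), Itga7 (139 ± 27.6) and Itga5 (67.9 ± 4.53 CPM per kb) were each apart from the next gene. Itga9 (50.4 ± 7.87 CPM per kb) stood above Itgb5 (44.3 ± 3.87) with overlap. The other 5 knockout levels ran from Itgb6 at 7.63 to Itga1 at 4.83 CPM per kb, each overlapping its neighbour, so that Itga1 took the lowest place and Itgav the one above it.

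The make-up of the alpha subunit RNA differed between the groups as a description of these levels. The 7 alpha genes summed to 194 ± 29.7 CPM per kb in the heterozygotes (159 to 219) and to 280 ± 39.3 CPM per kb in the knockouts (241 to 327), without overlap. Itga7 made up 48.3 to 64.4% of the alpha sum in the heterozygotes and 46.8 to 53.3% in the knockouts. The share of Itga9 was 9.62 to 13.4% and 17.5 to 18.6%, a narrow range in the knockouts, and that of Itga5 was 15.7 to 23.7% and 21.6 to 27.0%. Per length, Itga9 stood at 0.149 to 0.224 of Itga7 in the heterozygotes and at 0.330 to 0.395 of it in the knockouts. Shares within a sum move against one another, so they add no evidence to the single genes.

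**Figure D4:**
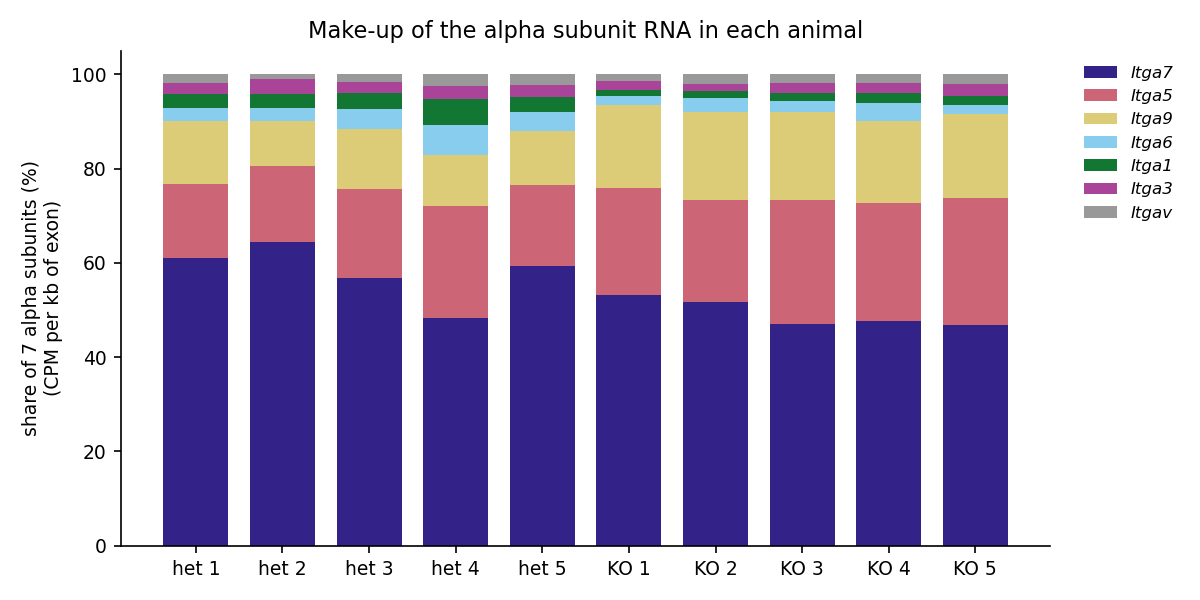
Share of each alpha subunit in the summed level of the 7 alpha subunits (CPM per kb of exon, in %) for each animal, heterozygotes (het) left and knockouts (KO) right. Itga7 is the largest part in all 10 animals, and the yellow part, Itga9, is 17.5 to 18.6% in the knockouts and 9.62 to 13.4% in the heterozygotes.

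Against Itgb1, the 6 alpha genes other than Itgav summed to 1.13 ± 0.345 times its level per length in the heterozygotes and to 1.48 ± 0.181 times in the knockouts (SD, n = 5 each), and the ranges overlapped (0.817 to 1.67 and 1.30 to 1.73). Itgb5 was at 7.11 to 15.8 times the level of Itgav per length in the heterozygotes and at 7.58 to 9.53 times in the knockouts. Itgb6 was at 1.71 to 3.28 and 1.01 to 2.16 times the level of Itgav, again with overlap.

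Upstream sequence is shown for Itga5 and Itgav, which rose, and for their partner Itgb1, which did not pass the test. Each run holds the 250 bases before the RefSeq start of the gene (build GRCm38.p6, the assembly of mm10), 5′ to 3′ on the strand of the gene. Capitals mark matches on either strand to GGGCGG, the GC box bound by Sp1-family factors (CCGCCC on the other strand), and to GGAATG, the core bound by TEAD factors. The Itga5 window is chr15:103366792-103367041 (minus strand), the Itgav window chr2:83724147-83724396 (plus strand) and the Itgb1 window chr8:128685404-128685653 (plus strand).
Itga5: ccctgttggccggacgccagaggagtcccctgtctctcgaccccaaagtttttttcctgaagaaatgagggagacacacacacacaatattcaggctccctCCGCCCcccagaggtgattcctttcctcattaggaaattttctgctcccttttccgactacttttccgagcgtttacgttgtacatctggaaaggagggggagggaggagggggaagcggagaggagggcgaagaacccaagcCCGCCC
Itgav: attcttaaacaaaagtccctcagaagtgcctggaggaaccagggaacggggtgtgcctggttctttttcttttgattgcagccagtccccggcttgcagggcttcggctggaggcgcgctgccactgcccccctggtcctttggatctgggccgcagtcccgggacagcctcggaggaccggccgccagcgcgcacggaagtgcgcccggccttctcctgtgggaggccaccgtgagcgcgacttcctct
Itgb1: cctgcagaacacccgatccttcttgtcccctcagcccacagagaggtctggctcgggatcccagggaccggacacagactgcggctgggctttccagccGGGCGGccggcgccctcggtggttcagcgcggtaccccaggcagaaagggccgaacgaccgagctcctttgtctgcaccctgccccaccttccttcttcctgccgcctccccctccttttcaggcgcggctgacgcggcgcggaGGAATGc
No match overlapped another. The Itga5 window held 2 GC boxes, the last directly before the start, the Itgav window held no match, and the Itgb1 window held 1 GC box and, ending 2 bases before the start, 1 GGAATG.

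RefSeq entries were found for 8 of the 10 subunits, and 7 of these began within 100 bases of the gene start used for counting. The Itga9 entry began 104983 bases inside the gene, and was not used. Second entries of Itga3 and Itgb6, 7516 and 48910 bases inside those genes, were not used either. The second Itga3 entry held 1 GGGCGG, and the second Itgb6 entry held a CArG box (CCTTATAAGG). GGGCGG stood in 4 of the 7 windows (Itga3, Itga5, Itgb1 and Itgb5), beside 32.9% of 27025 promoter windows of the same length, and GGAATG in 1 of 7 beside 12.6%. TGANTCA (AP-1), TATAAA and the CArG box bound by SRF matched in 0 of the 7 windows, beside 6.87%, 12.97% and 1.40% of all windows. These counts describe letters only.

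The remaining integrin genes were at low levels. Of 18 further genes of the family in the table, 12 did not pass the filter on low counts and 6 were tested, with a median log2 fold change of -0.30. None of the 6 passed edgeR's test, against 18.9% of all tested genes, with 1 at an unadjusted p below 0.05 and 0 called by DESeq2. The highest was Itga8, a partner of beta1 typical of smooth muscle and mesenchyme, at 4.67 ± 1.20 CPM in the heterozygotes and 2.96 ± 0.981 CPM in the knockouts (SD, n = 5 each; edgeR adjusted p 0.117). Itgb3 and Itgb8, the other partners of alphav, had 4 to 25 and 0 to 15 counts per animal.

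Ligands of the integrins were taken from lists of known pathway genes. Of 14 tested laminin and basement membrane genes, 5 rose and 1 fell (median log2 fold change 0.31). That is 42.9% called, against 18.9% of all tested genes. Lamb3, which encodes the beta3 laminin chain of epithelial basement membranes, fell from 23.8 ± 5.09 to 11.97 ± 4.03 CPM (SD, n = 5 each; -0.97, SE 0.208, edgeR adjusted p 0.00490). Lama2, the alpha2 chain of the laminin to which alpha7 binds in muscle, rose (0.56, edgeR adjusted p 0.00308), as did Lama5 (0.51, edgeR adjusted p 0.0310), Lamc1 (0.51, 0.00900) and Lama4 (0.49, 0.00616). With the endothelial covariate 3 of the 14 were called, 2 higher and 1 lower, and Lama2, Lama5 and Lamc1 were not among them. Lama5 also lost its call in 6 of the 10 fits without 1 animal.

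Of 19 other tested ligand genes, 3 rose and 0 fell (median log2 fold change -0.01). That is 15.8% called, against 18.9% of all tested genes. The 3 were Ctgf, a matricellular protein (1.56, edgeR adjusted p 0.000833), Mfge8, an RGD protein bound by alphav integrins (0.54, adjusted p 0.00253), and the collagen VI gene Col6a2 (0.44, adjusted p 0.0154, and 0.0547 with the endothelial covariate). Among further ligands of the subunits that rose, 3 did not pass: Fn1, fibronectin, had a log2 fold change of -0.33 (edgeR adjusted p 0.396), Vtn, vitronectin, one of -0.72 (0.158), and Tnc, tenascin-C, one of 0.39 (0.522). Spp1, the osteopontin gene, had 0 to 4 counts per animal and was not tested. With the Y-linked covariate Vtn was called lower (-0.97, edgeR adjusted p 0.0472).

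Of 31 tested activators and adaptors of integrin tails, 13 rose and 3 fell (median log2 fold change 0.22). That is 51.6% called, against 18.9% of all tested genes. The largest rises were those of the focal adhesion kinase relative Ptk2b (1.68), the kinase gene Src (1.48), Flnc (1.32) and Zyx, a LIM protein of focal adhesions (1.11), with edgeR adjusted p of 3.30e-05, 0.00147, 6.00e-05 and 0.000176. Their levels differed widely. Heterozygote and knockout means were 1.70 and 4.69 CPM for Src and 6.91 and 22.3 CPM for Ptk2b. They were 99.0 and 214 CPM for Zyx and 274 and 684 CPM for Flnc. Tln1, which encodes the talin that links beta tails to actin and was chosen for mention after its values were seen, rose from 150.3 ± 24.9 to 301 ± 26.1 CPM (1.00, SE 0.117, edgeR adjusted p 4.63e-05). Its muscle paralogue Tln2 did not pass (0.03, adjusted p 0.863). The falls were those of Fermt3, the kindlin of blood cells (-0.92, adjusted p 0.0289), Itgb1bp2, the muscle beta1-binding chaperone melusin (-0.61, adjusted p 0.00136), and Lims2 (-0.59, adjusted p 0.0295).

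Itgb1bp2 was at 365 ± 50.9 CPM in the heterozygotes and 239 ± 23.4 CPM in the knockouts (SD, n = 5 each) without overlap. Its call held in all 19 settings, as did those of Tln1, Flnc, Zyx, Ptk2b and, where tested, Src. Fermt3 averaged 5.72 CPM in the heterozygotes and 3.04 CPM in the knockouts, and lost its call in 5 of the 10 fits without 1 animal. Macrophage markers were also lower in the knockouts, with sums of 13.1 to 31.1 CPM in the heterozygotes and 7.50 to 10.2 CPM in the knockouts. Lims2 lost its call with library totals, with the endothelial covariate and in 5 fits without 1 animal. Calls in the list numbered 10 with the endothelial covariate and 11 to 15 without single animals. The part of macrophage RNA in the Fermt3 difference was not tested.

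Of 10 tested genes of latent TGF-beta and its receptors, 4 rose and 0 fell in the main fit (median log2 fold change -0.02). That is 40.0% called, against 18.9% of all tested genes. Lrrc32, which holds latent TGF-beta at the cell surface and is named after its values were seen, had a log2 fold change of -0.62 (edgeR adjusted p 0.0710) and was called lower by DESeq2 (adjusted p 0.0380) and with the Y-linked covariate (edgeR adjusted p 0.0325). Tgfb2 rose from 13.5 ± 2.58 to 98.3 ± 23.4 CPM (SD, n = 5 each; 2.87, SE 0.177, edgeR adjusted p 2.62e-07), Tgfb3 by 0.92, the latent TGF-beta binding protein gene Ltbp3 by 0.81 and the receptor gene Tgfbr1 by 0.71 on the log2 scale. Tgfbr1 lost its call with the endothelial covariate (edgeR adjusted p 0.178). Tgfb1 did not pass (-0.17, edgeR adjusted p 0.733). The plot of list genes shows the 10 subunits beside these lists.

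**Figure D5:**
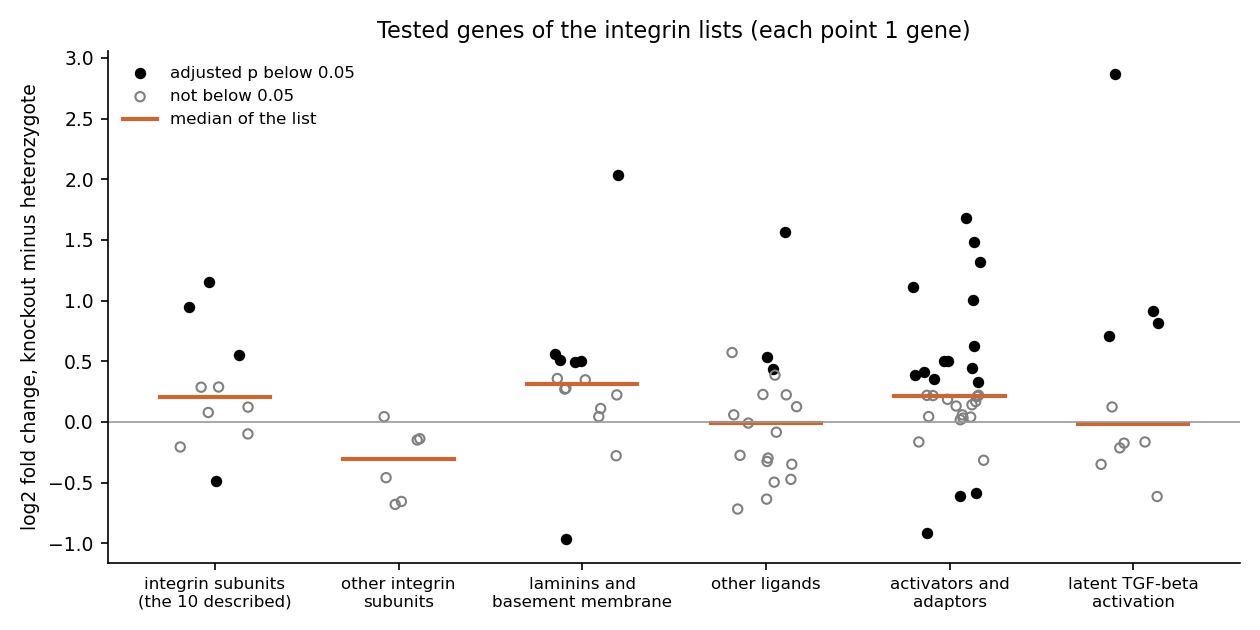
Log2 fold change, knockout minus heterozygote, of each tested gene in the integrin subunits described and in 5 related lists, 1 point per gene (filled where the adjusted p is below 0.05), with the median of each list as an orange line. The 10 subunits span -0.49 (Itga1) to 1.15 (Itga9), and Tgfb2 (2.87) is the highest point of its list.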

How the data were processed

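Libraries were made from the polyadenylated RNA of cardiomyocytes of 5 knockout and 5 heterozygote mice. The deposited values are raw read counts per gene, made by the authors with featureCounts 1.5.1 without strand or multi-mapping options, per the file headers, on the UCSC mm10 annotation (archive of 2012). The submitters' processing notes name STAR 2.5.3a and Subread 1.5.2, a release other than the one in the header. Of the count columns, 4 match no sample here and were not used. The deposited table also gives each gene's exon length, used for CPM per kb. Genes were filtered with edgeR's filterByExpr (minimum count 10, minimum total 15), scaled with TMM and compared with edgeR 4.0.16 (quasi-likelihood, R 4.3.3) over all genes with Benjamini-Hochberg adjustment, called below 0.05. SE is the size of the log2 fold change divided by the square root of F. The procedure was tested on simulated data. Replicate libraries differed by more than counting noise (chi-square 10.8 to 37.5 per degree of freedom). The smallest level the depth can show, 3 counts, was 0.126 to 0.384 CPM, which covers counting error only.

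The members, gene lists and alternatives were chosen with earlier results of these data known. Named from each pathway list were up to 4 called genes with the largest rise and 4 with the largest fall, and the 3 genes nearest in pattern to the member with the largest rise and to that with the largest fall. Genes such as Tln1, Tln2, Fn1, Vtn, Tnc, Tgfb1, Itga8, Itgb3, Itgb8 and Itgb2 were named after their values were seen. Alternatives were RLE, upper-quartile and library-total scaling, no filter or a filter at 5 CPM on average, a block on replicate number, DESeq2 1.42.0, the endothelial marker level or Y-linked expression as a covariate, and leaving out each animal. One gene that the naming rule selects is not reported here.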

Additional observations from a re-analysis of the deposited data

Results flagged for a closer look

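Within a group of 5 animals, a value was looked at again when the gap from the highest or lowest animal to the nearest other exceeded 0.71 of the range of the group. Of 32 such groups (each subunit, Actn2, total counts and 4 marker lists in each genotype), 5 had such a value, where about 1.6 would by chance.

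One concerned a subunit: Itgb1 was at 9.09 log2 CPM in heterozygote 2 and at 9.52 or more in the other heterozygotes (gap 0.768 of the range), and without that animal its log2 fold change was -0.01. The same heterozygote was also the lowest in Itgav. Total counts were 25237696 in heterozygote 1 against 10309615 in the next (gap 0.870), and leaving that animal out kept the same 4 subunits called. Mural markers summed to 271 CPM in heterozygote 4 against 192 (gap 0.720 of the range) and to 189.7 CPM in knockout 5 against 262 (gap 0.746). Macrophage markers summed to 31.1 CPM in heterozygote 3 against 14.9 (gap 0.901), and without that animal Itga1 lost its call (adjusted p 0.0522) while Itga5, Itga9 and Itgav kept theirs.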

How the results depend on the processing

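Over 190 combinations of subunit and setting, 174 kept direction and side of the threshold, 8 lost the call, 3 gained it and 5 changed sign. Itga5, Itga7, Itga9 and Itgb6 were the same in all 19 settings. With the endothelial marker covariate, 1132 genes were called in place of 2241, 2 subunits (Itga5 and Itga9) in place of 4 and 0 subunits lower, Itga3 turned to -0.042 and Itga6 to 0.41. With library totals alone 0 subunits were called lower. When single animals were left out, calls over all genes numbered 1699 to 2258, called subunits 3 to 5, those higher 2 to 4 and those lower 0 to 1, and Actn2 ran from -1.44 to -1.35. Itga6 then turned to 0.030 without heterozygote 4 and to 0.01 without knockout 5 (range -0.23 to 0.03), and Itgb1 to -0.010 without heterozygote 2 (range -0.01 to 0.11). The causes were not tested.

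Heterozygotes and knockouts share replicate numbers that nothing in the labels ties together. Deviations of same-numbered animals correlated at -0.06 to 0.19, and 4 of 10 samples correlated best with their own number. With the replicate number as a block, 2182 genes and the same 4 subunits were called. The SE was then smaller for Itga1, Itga6, Itga7, Itga9, Itgb5 and Itgb6 and larger for Itga3, Itga5, Itgav and Itgb1. For Itga7 it was 0.102 in place of 0.166 (log2 fold change 0.30, edgeR adjusted p 0.0643). In that fit 7 of the 10 endothelial markers were called lower in place of 1, and Vtn (-0.81, edgeR adjusted p 0.0392), Lrrc32 (-0.64, 0.0301) and Ltbp4 (-0.35, 0.0240) were called lower.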

Other observations

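Itgb2, the beta subunit of leukocyte integrins, had 7, 6, 9, 6 and 3 counts in heterozygotes 1 to 5 and 0, 0, 2, 0 and 0 in the knockouts, too few for the filter. In the fit without a filter it was the 1 further integrin gene called (edgeR adjusted p 0.0124). The CPM of the macrophage gene Csf1r were also lower in all knockouts than in all heterozygotes (log2 fold change -0.86, edgeR adjusted p 0.0216).

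Among the 6 mural markers, Cspg4 rose from 37.0 ± 6.39 to 132 ± 21.3 CPM (SD, n = 5 each; log2 fold change 1.84, edgeR adjusted p 1.23e-06) without overlap, while Cnn1 had a log2 fold change of 1.05 (edgeR adjusted p 0.0806) and Pdgfrb, Rgs5, Kcnj8 and Myh11 had log2 fold changes of -0.33, -0.35, -0.43 and -0.65 and did not pass the test. Cspg4 encodes the NG2 proteoglycan of pericytes. These genes were chosen for mention after their values were seen.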
